A study of Mus musculus with 6 samples.

Results

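The genes described here encode the subunits of the proteasome, its assembly factor Psmd5 and its activators, in ovarian tissue of rats. They were taken as every row of the deposited expression table whose gene name begins with Psm, then 1 letter from a to e and a number, with a count in at least 1 library. This gave 41 of 22487 genes. The study has 6 RNA-seq libraries of wild-type ovaries in 2 groups. The PM2.5 group has 3 libraries after exposure to cowshed PM2.5, the fine particles suspended in the air of cattle housing, and the control group has 3 without treatment. The titles give a time of 30 days for both groups but not from which event it runs. How the particles were given and the animals' age are not stated in the sources used here. The titles and gene identifiers are of the rat although the organism field names the mouse, so the samples are treated as rat. Whether each library is a different animal is not stated, so the p-values here reflect only how far these 6 samples scatter, and that scatter may be technical.

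The proteasome is the barrel-shaped protease that degrades proteins tagged with ubiquitin. Its core particle is built from stacked rings of alpha subunits, which form the gate, and beta subunits, of which Psmb5, Psmb6 and Psmb7 cut peptide bonds. A regulatory cap of ATPases (the Psmc genes) and non-ATPase subunits (most Psmd genes) binds the tagged protein, removes ubiquitin and feeds the chain into the core. Interferon-gamma induces the alternative catalytic subunits Psmb8 and Psmb9, which replace Psmb5 and Psmb6 in the immunoproteasome and shape the peptides that MHC class I molecules present. In the ovary, proteasomal degradation of cyclin B and securin lets the oocyte complete its meiotic divisions.

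The total count per library lay between 49554241 and 60749578 in the PM2.5 group and between 47662338 and 51530427 in the control group. Of the 41 members, 40 passed the filter of a mean of at least 0.5 FPKM (fragments scaled to gene length and library size, which allows levels of different genes to be set side by side), and all 40 were tested. Psma8, an alpha subunit known from the testis, was the member below the filter, with 0, 39 and 13 counts in PM2.5 libraries 1 to 3 and 0, 13 and 13 counts in controls 1 to 3. The third immunoproteasome subunit, Psmb10, had no row of that name and was not analysed here, and neither were Psmb11, Psmd9 and Psme3. Rows under other names carry proteasome annotation, Ctrl and G6pc1 among them, and whether they hold reads of these genes was not tested. No row is named Psmd10 either, but 1 row under another name, AABR07040855.1, is described as non-ATPase subunit 10 and is not counted among the members. Of the 40 tested rows, 37 encode subunits, the assembly factor and activators. The other 3 match by name only: Psmc3ip, a partner of meiotic recombinases, Psme3ip1, a protein that binds an activator, and the pseudogene row Psme1-ps1. Markers of the labelled tissue were present, with counts for all 7 granulosa cell genes and for the 6 oocyte genes that had a row.

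The fold changes of the proteasome genes between PM2.5 and control ovaries were small. At a Benjamini-Hochberg adjusted p below 0.05, edgeR's quasi-likelihood test called 0 of the 40 members, where it called 0.928% of the 15303 genes tested (0.19% higher and 0.738% lower in the PM2.5 group). At an unadjusted p below 0.05 there were 2 members, Psmd1 and Psmd3, or 5% of 40, both higher in the PM2.5 group. Of all genes 20.9% passed, with 9.17% higher and 11.7% lower. DESeq2, run as an alternative, called 1 member, Psmd3, as higher, where it called 11.5% of all genes tested and 4.78% as higher. The median log2 fold change was 0.02 over the 40 members and 0.00 over all genes tested. All 40 members lay within 1.5-fold, as did 70.9% of all genes. The 95% interval of the fold change stayed within 2-fold for 38 of the 40 members, against 48.0% of all genes, and the exceptions were Psmb8 and Psme1-ps1. The median level of the members was 59.1 FPKM, against 7.19 FPKM over all genes tested, and the part of that level in the width of the intervals was not tested.

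**Figure D1:**
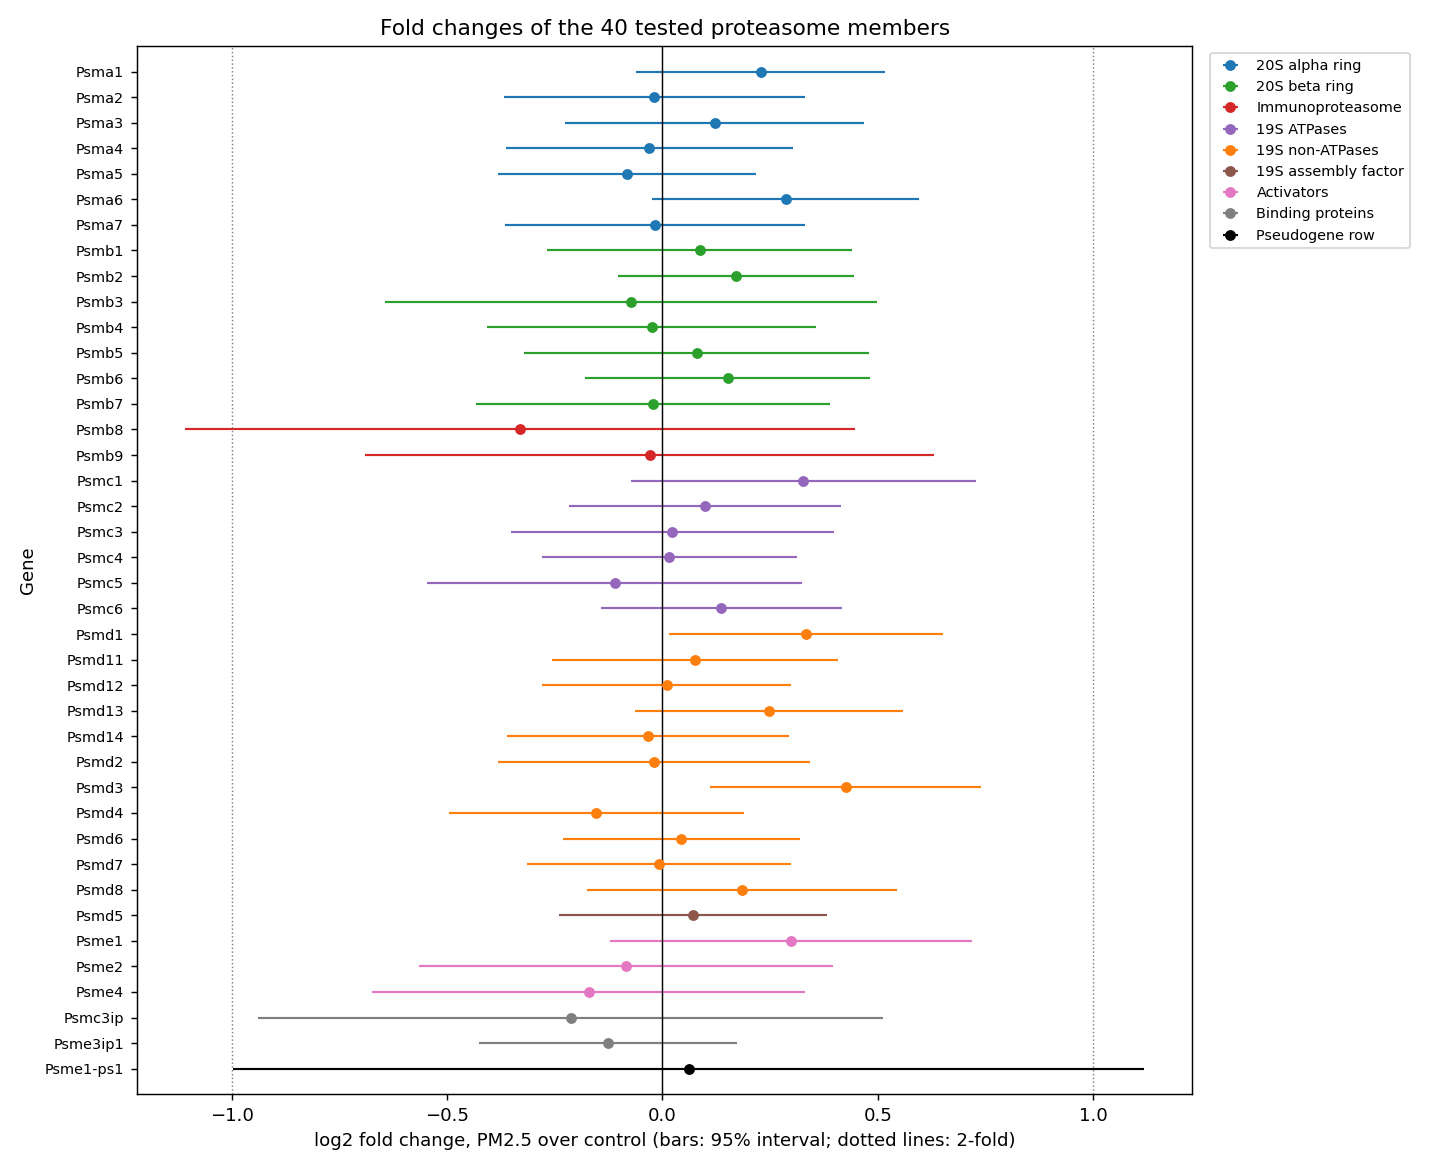
Log2 fold change of each tested member, PM2.5 over control, as a point with its 95% interval; the rows are genes coloured by role and the dotted lines mark 2-fold. The points lie between -0.33 (Psmb8) and 0.43 (Psmd3), and the intervals of Psmb8 and Psme1-ps1 cross a dotted line.

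The 7 tested alpha ring genes had log2 fold changes between -0.08 and 0.29, with 3 above and 4 below 0. Psma6 had 175, 153 and 149.5 CPM (counts scaled to the TMM-adjusted library size) in PM2.5 libraries 1 to 3, and 135, 124 and 132 CPM in controls 1 to 3. Each PM2.5 library lay above every control for this gene, and its log2 fold change of 0.29 ± 0.13 (SE) had an edgeR adjusted p of 0.267. Psma1 had 185, 173 and 171 CPM in the PM2.5 libraries and 146, 149 and 157 CPM in the controls, again without overlap, at a log2 fold change of 0.23 ± 0.12. Psma5 was at the other end, with 81.2, 80.1 and 80.5 CPM in the PM2.5 libraries and 80.5, 80.4 and 95.0 CPM in the controls. Control 3 alone was higher, and the other 5 libraries of Psma5 were nearly equal. Psma2, Psma4 and Psma7 had log2 fold changes between -0.03 and -0.02, and Psma3 had 0.12 ± 0.15.

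The 7 beta ring genes of the constitutive core had log2 fold changes from -0.07 to 0.17, with 4 above and 3 below 0. Psmb5, which carries the chymotrypsin-like activity, had 104, 122 and 119 CPM in the PM2.5 libraries and 117, 87.0 and 122 CPM in the controls. Psmb6, the caspase-like subunit, had 103, 119 and 114 CPM in the PM2.5 libraries and 113, 94.0 and 94.8 CPM in the controls. Psmb7, the trypsin-like subunit, had 189, 178 and 175 CPM in the PM2.5 libraries and 197, 144 and 209.5 CPM in the controls. The groups overlapped for all 3 catalytic genes, and their log2 fold changes were 0.08 ± 0.17, 0.15 ± 0.14 and -0.02 ± 0.17. Psmb2, a structural beta subunit, had the highest value of the ring and no overlap, with 95.3, 104 and 98.8 CPM in the PM2.5 libraries and 89.2, 87.5 and 88.4 CPM in the controls. Psmb3, with the lowest, had 157, 182 and 149 CPM in the PM2.5 libraries and 181, 115 and 217 CPM in the controls, so that the controls alone spanned the whole range of the gene. Psmb1 and Psmb4 had log2 fold changes of 0.09 ± 0.15 and -0.02 ± 0.16. A row described as similar to Psmb6, LOC100360846, had 0.802 to 1.84 CPM in the 6 libraries, and its reads may be shared with those of Psmb6.

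**Figure D2:**
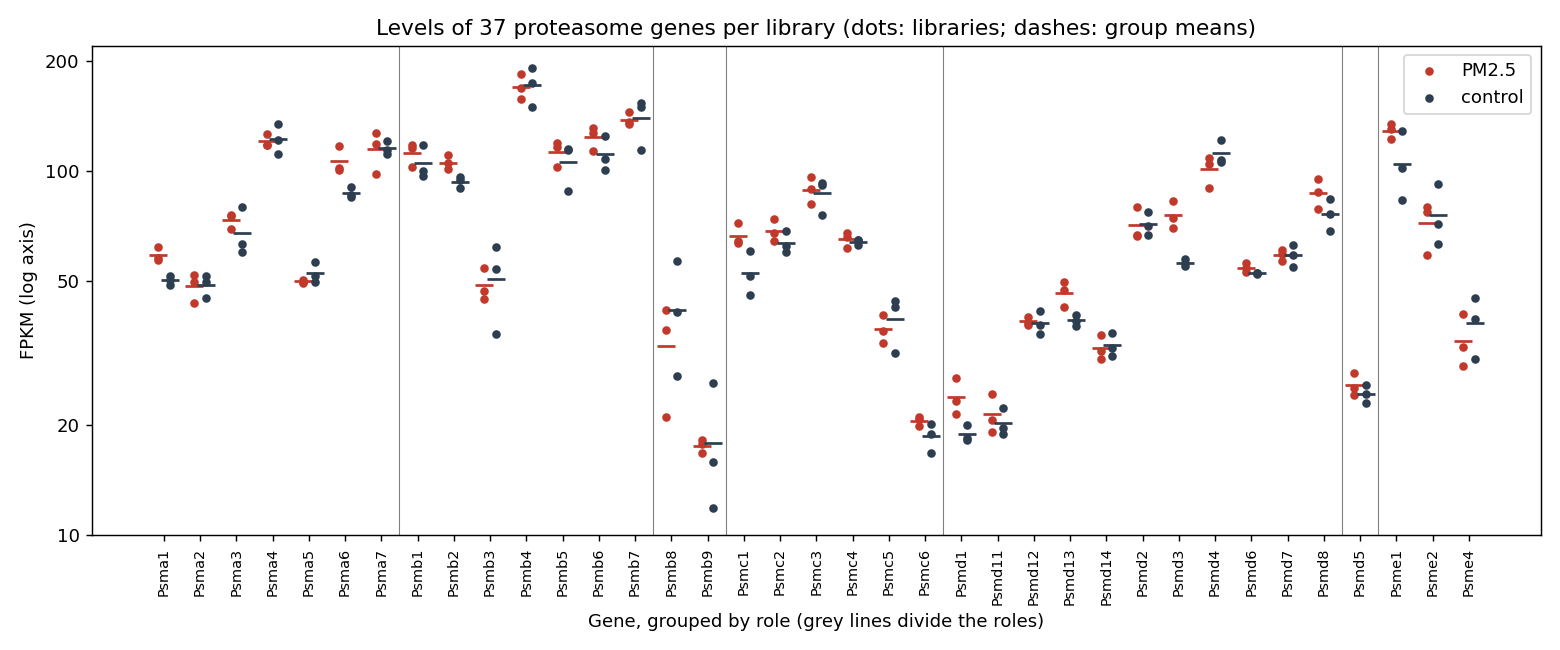
FPKM on a log axis for the 37 tested subunit, assembly factor and activator genes, grouped by role; dots are libraries and dashes are group means, PM2.5 in red and control in dark blue. Psmb4 stood highest in both groups and Psmb9 lowest among the group means, and the 2 colours overlap for most genes.

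Levels differed far more between subunits than between groups. Psmb4 had the highest mean, 170.4 ± 13.4 FPKM in PM2.5 and 172 ± 21.4 FPKM in control ovaries (SD, n = 3 each), and ranked first among the members in each of the 6 libraries. In the beta ring Psmb4 was the highest and Psmb3 the lowest in every library, with a ratio of FPKM between 3.11 and 4.14 in the PM2.5 libraries and between 2.83 and 4.20 in the controls. In the ATPase ring the highest was Psmc3 and the lowest Psmc6 in every library, with ratios between 3.86 and 4.62 in the PM2.5 libraries and between 3.77 and 5.45 in the controls. The median of the beta ring genes lay between 103 and 119 FPKM in the PM2.5 libraries and between 96.8 and 118 FPKM in the controls. The alpha ring median lay lower, between 69.4 and 75.8 FPKM in the PM2.5 libraries and between 59.7 and 79.6 FPKM in the controls. Transcript levels thus differed between subunits of 1 ring, on a scale that rests on the authors' gene lengths.

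Of the 6 ATPases of the cap, 5 had fold changes above 0 and none passed the test. Psmc1 had 211, 188 and 186 CPM in the PM2.5 libraries and 151, 129.7 and 185 CPM in the controls. The groups were apart only by the narrow gap between PM2.5 library 3 and control 3, and the log2 fold change was 0.33 ± 0.17 (edgeR adjusted p = 0.315). Psmc5 had 92.6, 110.4 and 99.8 CPM in the PM2.5 libraries and 117, 84.1 and 126 CPM in the controls, with the PM2.5 values inside the range of the controls. Psmc6 had 100.4, 95.0 and 99.2 CPM in the PM2.5 libraries, all above the controls at 90.9, 93.0 and 84.0 CPM. Psmc2, Psmc3 and Psmc4 had log2 fold changes between 0.02 and 0.10.

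Among the 11 non-ATPase genes of the cap, 7 were above 0 and 4 below. Psmd3, a subunit of the lid, had 207, 187 and 175 CPM in the PM2.5 libraries and 144, 133 and 146 CPM in the controls. It had the largest fold change of all members, 0.43 ± 0.13 on the log2 scale, with an unadjusted p of 0.0152 and an edgeR adjusted p of 0.151. DESeq2 gave it 0.44 ± 0.15 and an adjusted p of 0.0290. Over edgeR and limma settings other than the main one, and with each library left out, the adjusted p ran from 0.141 to 0.398, and all 3 PM2.5 libraries lay above all 3 controls. Psmd1, the large scaffold of the cap base, had 116, 92.4 and 100.2 CPM in the PM2.5 libraries and 79.6, 83.2 and 82.1 CPM in the controls. Its log2 fold change was 0.33 ± 0.13 with an edgeR adjusted p of 0.225, and PM2.5 library 1 was the highest. Psmd13, another lid subunit, had 125, 139 and 146 CPM in the PM2.5 libraries and 119, 107 and 119 CPM in the controls, without overlap. Psmd4, a receptor for ubiquitin chains, was lowest in fold change at -0.15 ± 0.14, with 135, 158 and 164 CPM in the PM2.5 libraries and 185, 155 and 169 CPM in the controls. The remaining 7 genes had log2 fold changes from -0.03 for Psmd14, the enzyme that removes ubiquitin at the cap, to 0.18 for Psmd8. Psmd5, the assembly factor of the cap among the members, had 58.5, 64.2 and 55.8 CPM in the PM2.5 libraries and 53.4, 54.5 and 62.1 CPM in the controls.

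In 8 of the 40 tested members all PM2.5 libraries lay above all controls in CPM, and in 1 all lay below. The 8 were Psma1, Psma6, Psmb2, Psmc1, Psmc6, Psmd1, Psmd3 and Psmd13, and the 1 was Psme3ip1. That is 20% and 2.5% of the members, where 12.1% and 15.2% of all genes tested were apart in those directions and 27.2% in either. Over the 17 cap genes 12 had a positive fold change, with a median of 0.04, and over the 14 tested constitutive core genes 7 did, with a median of 0.03, where 50.4% of all genes tested were positive. Control 2 was the lowest of the 6 libraries for 21 of the 40 members, or 52.5%, against 13.6% of all genes tested. Without control 2 the members with a positive fold change numbered 17 of 39, since 1 member then fell under the filter, and without control 1 or control 3 they numbered 29 and 30 of 40, against 22 of 40 with all libraries. The member median was -0.05 without control 2 and 0.08 without control 3.

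**Figure D3:**
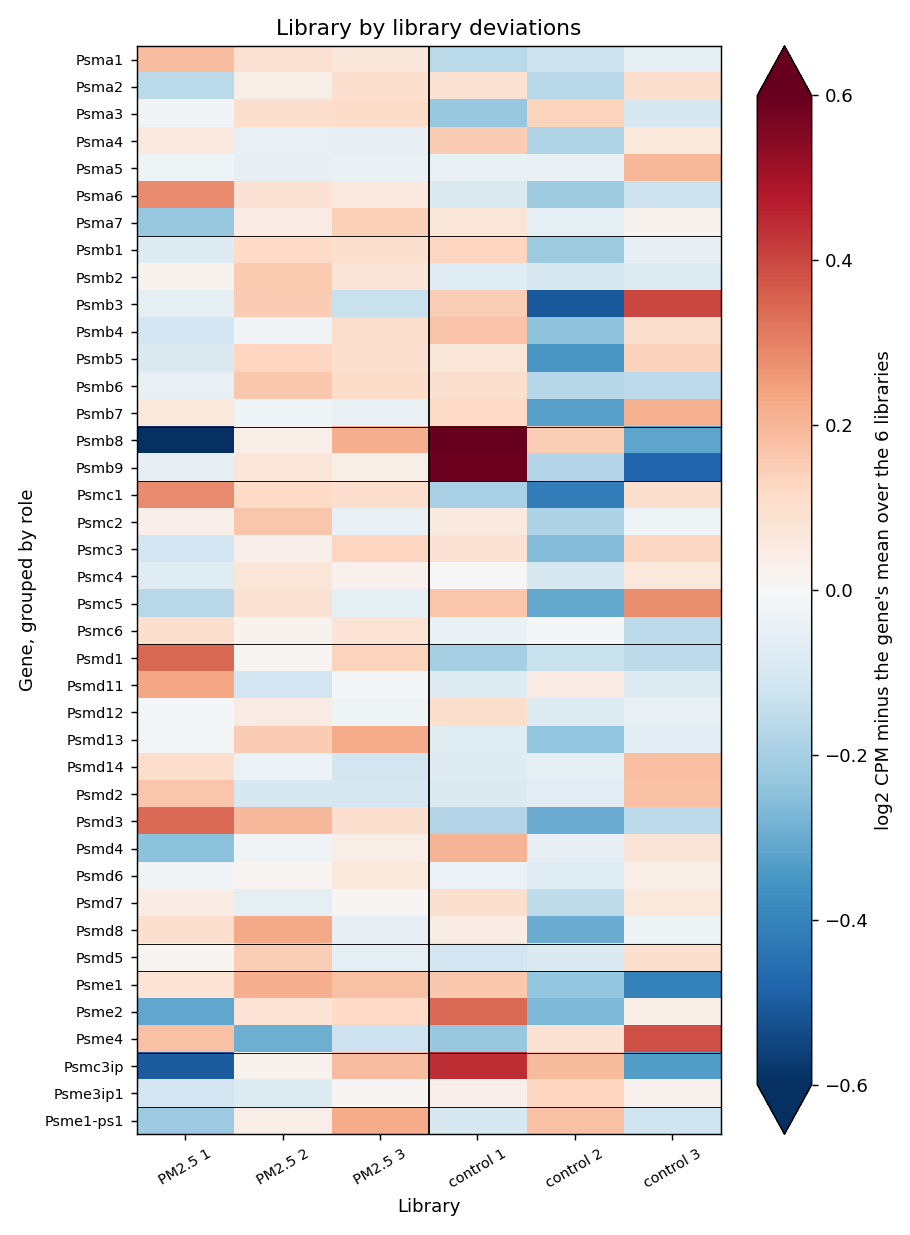
Colour shows log2 CPM minus the mean of the gene over the 6 libraries, with genes in rows grouped by role and libraries in columns, PM2.5 at the left of the black line; red is above and blue below the mean. The column of control 2 is mostly blue, and the darkest cells are those of Psmb8 in PM2.5 library 1 and of Psmb8 and Psmb9 in control 1.

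Neither immunoproteasome gene differed between the groups beyond the spread of its libraries, and Psmb8 varied most between libraries of all tested members. Psmb8 had 33.3, 57.8 and 65.4 CPM in PM2.5 libraries 1 to 3 and 89.4, 62.4 and 45.0 CPM in controls 1 to 3. PM2.5 library 1 was lowest and control 1 highest, and the groups overlapped. The log2 fold change was -0.33 ± 0.33 with a 95% interval from -1.11 to 0.45 and an edgeR adjusted p of 0.597, so that a fall past 2-fold and a smaller rise both lie inside the interval. Its log2 fold change was -0.09 without PM2.5 library 1 and -0.04 without control 1. Psmb9 had 36.6, 39.8 and 38.8 CPM in the PM2.5 libraries and 57.1, 33.4 and 27.1 CPM in the controls. The PM2.5 libraries were close together inside the wide range of the controls, and the log2 fold change was -0.03 ± 0.28 (interval -0.69 to 0.63), or 0.35 ± 0.18 without control 1. Over the 6 libraries the SD of log2 CPM was 0.48 for Psmb8 and 0.35 for Psmb9, against medians of 0.14 over the constitutive core genes, 0.13 over the cap genes and 0.35 over all genes tested.

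Each of these subunits takes the place of a constitutive one, so its level was set against that partner within each library. Psmb8 made up 17.1, 23.5 and 26.3% of the summed FPKM of Psmb8 and Psmb5 in the PM2.5 libraries, and 33.1, 31.7 and 19.2% in the controls. The log2 ratio of Psmb8 to Psmb5 averaged -1.82 ± 0.41 in PM2.5 and -1.40 ± 0.58 in control ovaries (SD, n = 3 each). The difference of -0.43 had a two-sided exact permutation p of 0.30, and 0.60 after Benjamini-Hochberg adjustment over the 2 pairs. Psmb9 made up 12.8, 12.2 and 12.3% of the summed FPKM of Psmb9 and Psmb6 in the PM2.5 libraries, and 17.3, 12.8 and 10.6% in the controls. That log2 ratio averaged -2.81 ± 0.04 in PM2.5 and -2.70 ± 0.41 in control ovaries, a difference of -0.11 with a two-sided exact permutation p of 0.80 for 3 against 3 libraries, adjusted 0.80. The smallest p that 3 against 3 libraries can give is 0.10, so neither ratio could have passed. The constitutive partner was the more abundant transcript in all 6 libraries for both pairs.

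**Figure D4:**
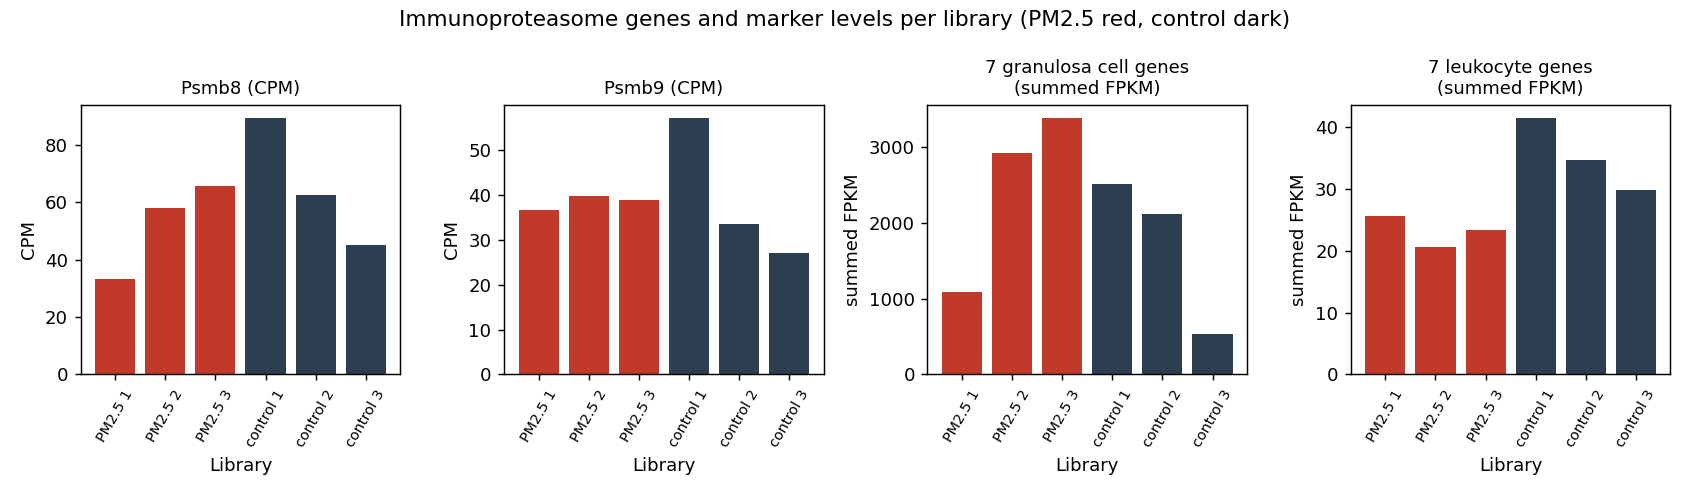
Bars give, for each library, the CPM of Psmb8 and of Psmb9, the summed FPKM of 7 granulosa cell genes and the summed FPKM of 7 leukocyte genes, PM2.5 in red at the left and control in dark blue. Psmb8 and the granulosa cell sum are both low in PM2.5 library 1 and control 3, and the leukocyte sum lies below every control in each PM2.5 library.

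Markers of other cells moved between the same libraries. The 7 granulosa cell genes summed to 1087, 2926 and 3390 FPKM in PM2.5 libraries 1 to 3 and to 2514, 2123 and 536 FPKM in controls 1 to 3. The 6 oocyte genes with a row summed to 40.4, 69.6 and 138 FPKM in the PM2.5 libraries and 70.3, 89.5 and 18.1 FPKM in the controls. Most of the granulosa cell sum came from Inha, and not every granulosa cell gene followed it: Foxl2 was highest in PM2.5 library 1, at 37.9 FPKM. PM2.5 library 1 and control 3, the lowest in both sums, were also the 2 lowest for Psmb8 and for Psmc3ip, but not for Psmb9. The summed level of 7 luteal and theca cell genes, most of it from Star, Cyp11a1 and Hsd3b1, was highest in those libraries, at 9115 FPKM in PM2.5 library 1 and 7691 FPKM in control 3, against 3206 to 4537 FPKM in the other 4. Not every gene of that list followed the sum: Cyp17a1 was lowest in PM2.5 library 1 and Lhcgr lowest in control 3. The 7 pan-leukocyte genes, 6 of them below 0 in fold change and none passing the test, summed to between 20.7 and 25.6 FPKM in PM2.5 and between 29.9 and 41.5 FPKM in control ovaries. The 9 T and NK cell genes with a row summed to between 9.22 and 10.5 FPKM in PM2.5 and between 13.4 and 14.9 FPKM in control ovaries. Gzmb, the granule protease of killer cells and the gene of that list that passed the test, made that gap, with 0.152, 0.438 and 0.167 FPKM in the PM2.5 libraries and 2.18, 3.86 and 7.52 FPKM in the controls. Its edgeR adjusted p was 0.0486, and no gene at all was called without PM2.5 library 2 or without control 1. The Gzmb row spans bases 30173603 to 30346814 of chromosome 15, and whether it holds reads of neighbouring genes was not tested. The other 8 genes of the T and NK cell list summed to 9.23, 10.1 and 9.05 FPKM in the PM2.5 libraries and 11.9, 9.51 and 7.38 FPKM in the controls, which overlap. Of the 7 genes tested in the whole list, Gzmb included, 3 were above 0. Among those 8, Prf1 did not overlap, at 0.379 to 1.07 CPM in PM2.5 and 1.94 to 2.12 CPM in control ovaries. Its log2 fold change of -1.44 ± 0.48 did not pass the test. The sums of the 10 macrophage genes overlapped, at 94.0 to 195 FPKM in PM2.5 and 114 to 141 FPKM in control ovaries. So did those of the 6 B and plasma cell genes, at 13.2 to 25.9 FPKM in PM2.5 and 12.9 to 18.9 FPKM in control ovaries. The 5 neutrophil genes with a row summed higher in PM2.5, at 4.29 to 7.09 FPKM, than in control ovaries, at 2.02 to 3.13 FPKM. Both tested genes of that list, S100a8 and S100a9, were above 0 at low levels, and neither passed. No marker with a row in these lists was at 0 in all libraries, and the part of cell makeup in the values of Psmb8 and Psmb9 was not tested. In whole tissue, fewer cells of a type and less RNA per cell cannot be told apart.

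Psmb8 lies on chromosome 20 from 4652159 to 4655283 and Psmb9 from 4666046 to 4672512, as the authors' file places them on a genome build that no source here names. The peptide transporter genes Tap1 and Tap2 lie beside them, Tap2 1751 bases and Tap1 979 bases away from Psmb8. Tap1 overlaps Psmb9 by 856 bases on the opposite strand, so reads there may not be separated, since the strand setting of the counting is not given. Tap1 had 41.0, 54.8 and 53.5 CPM in the PM2.5 libraries and 65.5, 36.4 and 43.9 CPM in the controls, with control 1 highest as for Psmb8 and Psmb9. All 41 members together lay on 16 chromosomes, with 7 on chromosome 10. The authors' table annotates 37 of the 41 members to the KEGG pathway Proteasome, all but Psmd5, Psmc3ip, Psme3ip1 and Psme1-ps1.

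The activators open the gate of the core particle without ATP. Psme1 and Psme2 form 1 ring-shaped activator that interferon-gamma induces, and their genes lie 6609 bases apart on chromosome 15. Psme1 had 175, 192 and 186 CPM in the PM2.5 libraries and 185, 140.5 and 125 CPM in the controls, while Psme2 had 89.0, 117 and 120.3 CPM in the PM2.5 libraries and 140.4, 92.2 and 113 CPM in the controls. Both overlapped, with log2 fold changes of 0.30 ± 0.18 and -0.08 ± 0.20. Psme4, a large single-chain activator of the nucleus, had 337, 242 and 273 CPM in the PM2.5 libraries and 254, 316 and 389 CPM in the controls, at -0.17 ± 0.21. Among the rows that match by name only, Psmc3ip had 8.66, 12.6 and 14.2 CPM in the PM2.5 libraries and 17.1, 14.3 and 9.75 CPM in the controls. Psme3ip1 had 39.4, 40.2 and 42.9 CPM in the PM2.5 libraries, just under the controls at 43.6, 46.7 and 43.4 CPM. Psme1-ps1 stayed below 1 CPM in every library, and its reads may be shared with those of Psme1.

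Beyond the members, 53 tested genes of 6 lists build, feed or regulate the proteasome, present its peptides or answer interferon. In edgeR's quasi-likelihood test over all genes 0 of them rose and 1 fell, or 0% and 1.89%. Of all genes tested, that test called 0.19% higher and 0.738% lower. DESeq2 called 1 higher, Ecpas, and 4 lower, Nfya, Irf8, Cxcl10 and Cd74, or 1.89% and 7.55% of the 53, where it called 4.78% of all genes higher and 6.77% lower. The gene that fell, among the 8 of transcriptional control, was Nfya, the DNA-binding subunit of the CCAAT-box factor NF-Y. It had 31.9, 24.6 and 31.8 CPM in the PM2.5 libraries and 70.4, 68.8 and 58.4 CPM in the controls, a log2 fold change of -1.16 ± 0.16 with an edgeR adjusted p of 0.0434. It kept this direction with any library left out, but its adjusted p was then between 0.0706 and 0.230, above 0.05 each time. Its partners Nfyb and Nfyc were at -0.28 ± 0.24 and 0.05 ± 0.22 and did not pass. Nfe2l1, the factor that raises proteasome genes when the proteasome is inhibited, had 348, 229 and 247 CPM in the PM2.5 libraries and 205, 214 and 197 CPM in the controls, at 0.42 ± 0.19 (edgeR adjusted p = 0.263). Ngly1, the deglycosylase that Nfe2l1 needs, was at -0.49 ± 0.21 and did not pass.

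Of the 11 partners and regulators of the cap none passed, and Ecpas, a scaffold that ties cap to core, came closest. Ecpas had 206, 226 and 196 CPM in the PM2.5 libraries and 124, 133 and 128 CPM in the controls. Each PM2.5 library was well above each control, at a log2 fold change of 0.71 ± 0.13 and an edgeR adjusted p of 0.0615 (7.94e-06 in DESeq2). Akirin2, which brings proteasomes into the nucleus, was at -0.23 ± 0.13. Of the 5 core assembly factors, Psmg1 had 45.7, 46.7 and 52.9 CPM in the PM2.5 libraries and 40.3, 29.3 and 33.9 CPM in the controls (0.49 ± 0.17), and Psmg2, the chaperone that pairs with it, was at -0.27 ± 0.18. Neither passed. Of the 13 genes of ubiquitin and its delivery none passed, with Nploc4, a cofactor of the segregase Vcp, at 0.36 ± 0.15 and the shuttle Rad23b at 0.29 ± 0.17.

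None of the 8 genes of peptide presentation on MHC class I passed. Nlrc5, a transcriptional activator of MHC class I genes, was the 1 below 0, at -0.20 ± 0.25, and the other 7 were above 0, with Calr at 0.25 ± 0.15 and Tap2 at 0.28 ± 0.20. The 8 tested interferon response genes were all below 0, with a median log2 fold change of -0.56, and none passed the test. Irf8, a transcription factor of myeloid and B cells, had 10.4, 8.20 and 5.92 CPM in the PM2.5 libraries and 20.4, 25.4 and 23.4 CPM in the controls, at -1.50 ± 0.26 with an edgeR adjusted p of 0.0581. Cxcl10, a chemokine that interferon-gamma induces, was at -1.78 ± 0.47 (edgeR adjusted p = 0.121). DESeq2 called Irf8, Cxcl10 and Cd74, the invariant chain of MHC class II, as lower. The sum of the pan-leukocyte genes was also lower in the PM2.5 group, and its part in the values of this list was not tested. Psmb8, Psmb9, Psme1 and Psme2, which the same cytokine induces, had log2 fold changes of -0.33, -0.03, 0.30 and -0.08.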

How the data were processed

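RNA was extracted with Trizol, selected for poly(A) and made into strand-marked paired libraries for the NovaSeq platform, per the labels' protocols. Per the submitters' processing notes, HISAT2 2.2.1, StringTie 2.1.6, cutadapt 1.9, edgeR and DESeq2 were used, while no source here names the build, the gene annotation or the strand option. The authors deposited, per the file headers, 1 table with a count and an FPKM value for each gene and library. Counts were tested here with R 4.3.3 and edgeR 4.0.16 (TMM factors, a filter keeping means of 0.5 FPKM or more, PM2.5 over control, Benjamini-Hochberg over all genes tested at 0.05). SEs were derived from the fold change and the F statistic. FPKM was used to set levels of different genes side by side and for the ratios of subunit pairs, tested by exact permutation. Alternatives used DESeq2 1.42.0, limma 3.58.1 on log2(FPKM + 1) and log2(FPKM + 0.1), other scalings and filters, a replicate block and each library left out. The fit was run on simulated data with changes of 2-fold or more. That run does not show how well changes within 1.5-fold, where all members lay, can be found.

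The members, lists and tests were chosen with earlier results of these data known. Values in every library are given for Psma1, Psmd1, the immunoproteasome subunits and their constitutive partners, and for the highest and lowest fold change of each role group; of each pathway list the called genes and the 2 with the smallest p are named. Further members whose groups did not overlap, Psma8, Psmd5, Nfyb, Nfyc, Nfe2l1, Cd74, Nlrc5, Tap1 and marker genes were named after their values were seen. The planned ratio of the third immunoproteasome subunit to Psmb7 was not computed, since no row carries that name, so p-values of the ratios were adjusted over 2 pairs. Libraries of a group differed by far more than sampling noise, with a chi-square per degree of freedom of at least 112.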

Additional observations from a re-analysis of the deposited data

How the results depend on the processing

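No member was called under any edgeR or limma setting or with any library left out, and DESeq2 called 1, Psmd3. Over all genes 142 were called, 8 with no filter on low values, 1767 by DESeq2, 1 with the replicate block and 0 to 7 with 1 library left out. None were called without PM2.5 library 2 or without control 1, where 1898 and 2477 genes had an unadjusted p below 0.05. With the replicate block 0 members were called, and the Psmb8 to Psmb5 and Psmb9 to Psmb6 ratios had exact sign-flip p-values of 0.50 and 0.75. With 3 libraries per group the sign-flip test cannot fall below 0.05, so neither ratio could have passed. Same-numbered libraries did not deviate together (correlations -0.27, 0.15 and -0.01), so the numbers were not taken as pairs. The median log2 fold change of the activators was -0.08, and -0.18 to 0.0818 with 1 library left out, the highest without control 1. That of the immunoproteasome genes ran from -0.39 to 0.15, of the core from -0.05 to 0.12 and of the cap from 0.02 to 0.08. The difference in the Psmb9 to Psmb6 log2 ratio was -0.11, and -0.30 to 0.11 with 1 library left out. Its sign turned to 0.11 without control 1, and the cause was not tested. Of 557 fold changes of the 40 members over all alternatives, 508 kept their sign and call, 48 changed sign while not called, and 1 gained a call. Nfya lost its call with no filter, with the replicate block and with any library left out. The 37 tested genes of subunits, assembly and activators had at least 1340 counts in every library, while Psma8 and Psme1-ps1 rest on few counts.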

Other observations

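Some rows outside the members carry proteasome annotation. The row named Ctrl, a chymotrypsin-like protease gene, also carries terms for the proteasome core and for proteasome assembly, and which gene its reads belong to cannot be told from the table. It had 31.8, 52.1 and 58.1 CPM in PM2.5 libraries 1 to 3 and 60.3, 49.3 and 33.9 CPM in controls 1 to 3, with PM2.5 library 1 and control 3 the lowest, as for Psmb8. Its log2 fold change was -0.01 ± 0.29. The row AABR07040855.1, described as non-ATPase subunit 10 of the proteasome, had 27.3, 28.9 and 24.0 CPM in the PM2.5 libraries and 32.6, 25.6 and 33.5 CPM in the controls, at -0.19 ± 0.18. The row G6pc1, described as a catalytic subunit of glucose-6-phosphatase, is also annotated to the KEGG pathway Proteasome. It had 115, 93.5 and 89.8 CPM in the PM2.5 libraries and 92.2, 112 and 114 CPM in the controls, at -0.10 ± 0.16. Which gene its reads belong to cannot be told from the table either. The groups overlapped for each of these rows.

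Some red cell genes were higher in the PM2.5 ovaries. The 7 erythroid genes with a row summed to 1035, 1354 and 1570 FPKM in the PM2.5 libraries and to 763, 418 and 416 FPKM in the controls, and the groups did not overlap. Of the 5 tested, 3 rose in edgeR's quasi-likelihood test over all genes, Hba-a1, Hbb and Alas2, where 0.19% of all genes were called higher. These 3 calls were lost with no filter on low values, with the replicate block and with any 1 library left out, while the direction stayed. Hba-a3 was at -0.14 ± 0.40 and Ahsp at 0.27 ± 0.45, both overlapping, and reads may be split between near-identical globin copies. The part of blood in the values of the proteasome genes was not tested.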
